A study of Mus musculus with 8 samples.

Results

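The genes described here are 10 genes of the myofibroblast and contractile program: Acta2, Tagln, Cnn1, Cnn2, Myl9, Tpm1 and Tpm2, which encode proteins of actin filaments and actomyosin, and Postn, Cthrc1 and Fap, which encode matrix and surface proteins of activated fibroblasts. They were picked out of the count data by gene symbol. All 10 were among the 18957 genes listed in the count data, and 8 of them were among the 13036 genes that passed the filter on low counts and were tested. Tagln and Cnn1 had too few counts to pass the filter.

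Myofibroblasts are fibroblasts that assemble alpha-smooth muscle actin into stress fibers, pull on the surrounding matrix and deposit collagen. In the heart they arise from resident fibroblasts after injury and are a main source of scar. Transcription of the contractile genes depends on serum response factor (SRF) with its actin-regulated coactivators and on TGF-beta signaling, and the nuclear lamina, of which LMNA is a main component, connects the cytoskeleton to the nucleus.

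Cardiac fibroblasts were sorted from the ventricles of mice 3 to 4 weeks of age as live cells that carried PDGFRA, a receptor of cardiac fibroblasts, and no hematopoietic lineage marker. RNA was sequenced in 4 libraries of wild type (WT) and 4 libraries of Pdgfra-Cre:LmnaF/F mice (F/F in what follows). In the F/F mice both Lmna alleles carry loxP sites around exon 2, and a bacterial artificial chromosome transgene expresses Cre from the Pdgfra locus. Both genotypes are labelled C57BL/6 (mixed). The Pdgfra-Cre transgene is not exclusive to fibroblasts, as the study found LMNA lost in a fraction of cardiac myocytes too. No library from mice with Cre alone was analysed here, so the presence of Cre and the loss of Lmna cannot be told apart.

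Library depth ranged from 2080555 to 10741519 counts in WT and from 8284882 to 12502949 in F/F, with WT replicate 2 the shallowest by far. Levels are given as counts-per-million values (CPM) scaled by trimmed mean of M-values (TMM) factors. A count of 3, taken as the detection floor, was worth 0.25 to 1.51 CPM, depending on the library, for counting error only. Lmna, the deleted gene, stood at 331, 274, 483 and 374 CPM in WT replicates 1 to 4 and at 126, 97.4, 130 and 90.4 CPM in F/F replicates 1 to 4. All F/F libraries were below all WT libraries and Lmna fell by 1.72 on the log2 scale (standard error (SE) 0.22, edgeR adjusted p = 0.00492). The counts cover the whole gene and not exon 2 alone.

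Markers of cardiac fibroblasts (9 genes, among them Pdgfra, Dcn and Tcf21) summed to 49284 to 56843 CPM in WT and to 42622 to 58999 CPM in F/F, the highest of the 7 cell type lists in every library. F/F replicate 4 stood apart from the other libraries. Its cardiomyocyte markers summed to 6255 CPM, against 774 to 1101 in WT and 356 to 970 in the other F/F libraries, and all 12 tested cardiomyocyte markers were highest in it. Its immune markers summed to 442 CPM, against 44.3 to 183 in WT and at most 109 in the other F/F libraries. Markers of mural cells, the pericytes and smooth muscle cells that express many contractile genes, summed to 628 to 856 CPM in WT, to 458, 551 and 688 CPM in F/F replicates 1 to 3 and to 1037 CPM in F/F replicate 4. That library was the highest for only 4 of the 13 tested mural markers. Among the 4 was Des, also a gene of cardiac muscle, at 188 CPM against at most 54.8 CPM in WT. Endothelial markers (8 genes) summed to 574 to 792 CPM in WT, to 464, 445 and 497 CPM in F/F replicates 1 to 3, all below every WT library, and to 590 CPM in F/F replicate 4. Most of this sum was Tek, with means of 473 CPM in WT and 313 CPM in F/F, against at most 56.3 CPM for any other endothelial marker. Of these 8 genes, 7 were fitted lower in F/F (median log2 fold change -0.37), edgeR called 0, with 2 at an unadjusted p under 0.05, and DESeq2 called 1, Tek. None of the 14 mural and 14 cardiomyocyte markers was at or under the floor in every library. Fitted changes of members that rest on F/F replicate 4 are therefore given with and without it below. Tallies over the gene lists include that library, and the part of other cell types in any member's level was not tested.

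**Figure D1:**
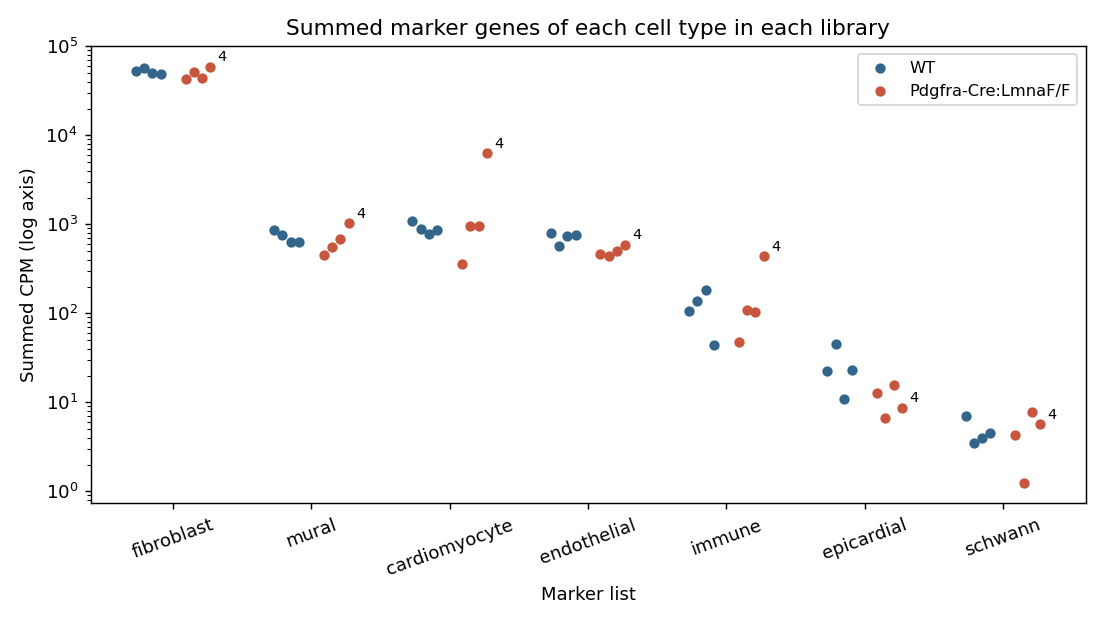
Summed CPM of the marker genes of each cell type (log axis) in each library, with F/F replicate 4 marked by its number. Cardiomyocyte markers reach 6255 CPM in F/F replicate 4 and lie between 356 and 1101 CPM in the other libraries.

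None of the 8 tested members passed an adjusted p of 0.05 between genotypes (edgeR quasi-likelihood test, adjusted over all genes tested), where 53 of 13036 genes, 0.407%, passed. Of the 8 members, 2 (Postn and Cthrc1) had an unadjusted p under 0.05, beside 1550 genes (11.9%) of all tested. DESeq2 called 1 member, Cthrc1, where it called 309 genes (2.15%), and limma-voom called 0, where it called 126 genes (0.967%). With no filter on low counts, edgeR called 2 members, Postn and Cthrc1, where it called 274 genes (1.45%). The fitted change was downward for all 5 tested contractile members, with a median of -0.36 on the log2 scale beside a median of 0.02 over all genes tested, and upward for Postn and Cthrc1. The direction turned upward for Tpm1 without F/F replicate 2 (0.081) or F/F replicate 3 (0.059) and for Tpm2 without F/F replicate 3 (0.12). In sorted cells, fewer cells of a type and less RNA per cell cannot be told apart.

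**Figure D2:**
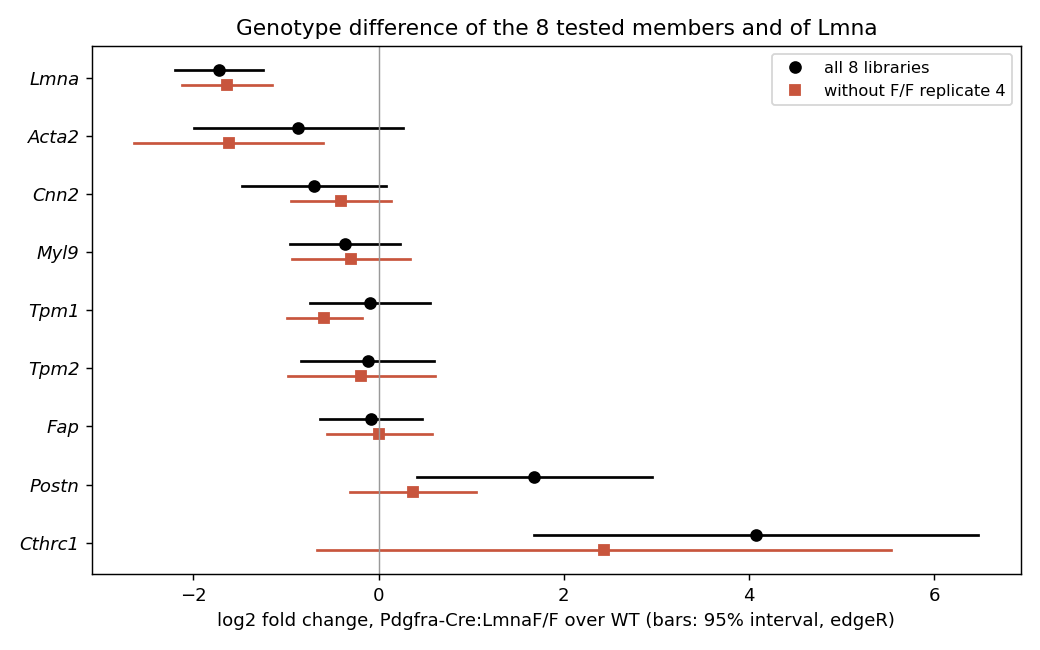
Log2 fold change of Lmna and of the 8 tested members, F/F over WT, with 95% intervals from edgeR, over all 8 libraries (black circles) and without F/F replicate 4 (red squares). Without that library the estimate for Acta2 moves from -0.87 to -1.62, for Tpm1 from -0.09 to -0.59, for Postn from 1.68 to 0.37 and for Cthrc1 from 4.08 to 2.43.

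Acta2 (ENSMUSG00000035783, chr19:34241090-34255590, minus strand, build mm10) encodes alpha-smooth muscle actin, the defining myofibroblast actin. It stood at 15.6, 50.8, 41.1 and 22.8 CPM in WT replicates 1 to 4 and at 15.7, 10.5, 5.07 and 39.0 CPM in F/F replicates 1 to 4. F/F replicate 1 was level with the lowest WT library and F/F replicates 2 and 3 were below it, whereas F/F replicate 4 lay among the higher WT libraries, so the groups overlapped. The mean was 32.6 ± 16.2 CPM in WT and 17.6 ± 14.9 CPM in F/F (SD, n = 4 each). The log2 fold change was -0.87 with a 95% interval from -1.99 to 0.26 (SE 0.53, edgeR adjusted p = 0.573). Without F/F replicate 4 it was -1.62, from -2.63 to -0.60, which is 3.07-fold lower in F/F, and still did not pass (edgeR adjusted p = 0.186). Of 2146 windows of 50 bases in the Acta2 transcripts, 7 (0.326%) also occur in transcripts of Actg1 or of actin pseudogenes, so few reads could be shared.

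Cnn2 encodes calponin 2, an actin-binding regulator of contraction found outside smooth muscle. It stood at 133, 190, 170 and 233 CPM in WT replicates 1 to 4 and at 178, 146, 88.1 and 35.8 CPM in F/F replicates 1 to 4. F/F replicates 3 and 4 were below every WT library and F/F replicates 1 and 2 were among them. The means were 182 ± 41.4 CPM in WT and 112 ± 62.8 CPM in F/F (SD, n = 4 each). The log2 fold change was -0.70, with an interval from -1.48 to 0.08 (SE 0.36, edgeR adjusted p = 0.481). Leaving out F/F replicate 4 gave -0.40 (edgeR adjusted p = 0.623). F/F replicate 4 was thus the lowest of the 8 libraries for Cnn2 while it was the highest for Tpm1.

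Tpm1 encodes tropomyosin 1, which lies along actin filaments and is expressed in muscle as well as in fibroblasts. Its values in WT were close together, at 412, 440, 350 and 419 CPM in replicates 1 to 4. In F/F replicates 1 to 3 it stood at 311, 236 and 262 CPM, all below the lowest WT library, and in F/F replicate 4 at 715 CPM, above the highest. The mean was 405 ± 38.7 CPM in WT (SD, n = 4), 381 ± 225 CPM in F/F (SD, n = 4) and 270 ± 38.1 CPM over F/F replicates 1 to 3 (SD). The log2 fold change over all libraries was -0.09, from -0.73 to 0.56 (SE 0.30, edgeR adjusted p = 0.95). Without F/F replicate 4 it was -0.59, from -0.99 to -0.18, a difference that did not pass the adjusted threshold (edgeR adjusted p = 0.225). F/F replicate 4 was also the library with the highest cardiomyocyte markers, and the part of those cells in its Tpm1 level was not tested.

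Myl9 encodes a regulatory light chain of the myosin of smooth muscle and stress fibers. It stood at 40.0, 36.7, 26.4 and 37.6 CPM in WT replicates 1 to 4 and at 36.8, 29.2, 19.9 and 23.3 CPM in F/F replicates 1 to 4. F/F replicates 3 and 4 were below every WT library. The means were 35.2 ± 6.03 and 27.3 ± 7.41 CPM (SD, n = 4 each), with a log2 fold change of -0.36 and an interval from -0.96 to 0.23 (SE 0.28, edgeR adjusted p = 0.679). Tpm2, the tropomyosin of smooth muscle and slow muscle, stood at 19.5, 26.7, 34.2 and 33.3 CPM in WT and at 35.7, 26.9, 12.4 and 29.7 CPM in F/F. F/F replicate 3 alone was below the WT range. The log2 fold change of Tpm2 was -0.12, from -0.84 to 0.60 (SE 0.34, edgeR adjusted p = 0.940), so that changes of up to 1.79-fold lower or 1.52-fold higher lie within the interval.

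Tagln and Cnn1, which encode transgelin and calponin 1, are the most smooth-muscle-restricted genes of the group and were at or near the floor in most libraries. Cnn1 had 0, 1, 39 and 5 counts in WT replicates 1 to 4 and 0, 0, 1 and 7 counts in F/F replicates 1 to 4. In 1 WT library, replicate 3, it reached 6.23 CPM, and in the other libraries it did not exceed 0.583 CPM. Tagln had 0, 0, 1 and 0 counts in WT and 8, 43, 0 and 0 counts in F/F replicates 1 to 4. The 43 counts came from F/F replicate 2 and made 4.48 CPM. In the GENCODE annotation 62.4% of the Tagln exon bases (1241 of 1988) are overlapped on the opposite strand by the antisense gene Gm48529, which is not among the genes listed in the count data, and 5.43% (108 bases) by Pcsk7, which is. Whether counting used the strand of the reads is not given in the sources used here. A read from these overlaps could not be assigned with certainty, and the Tagln counts are uncertain. Tagln and Cnn1 were left out of the filtered edgeR test. With no filter neither passed (edgeR adjusted p = 0.472 for Tagln and 0.539 for Cnn1), and with DESeq2 Cnn1 did not pass (DESeq2 adjusted p = 0.481) and Tagln received no adjusted p.

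**Figure D3:**
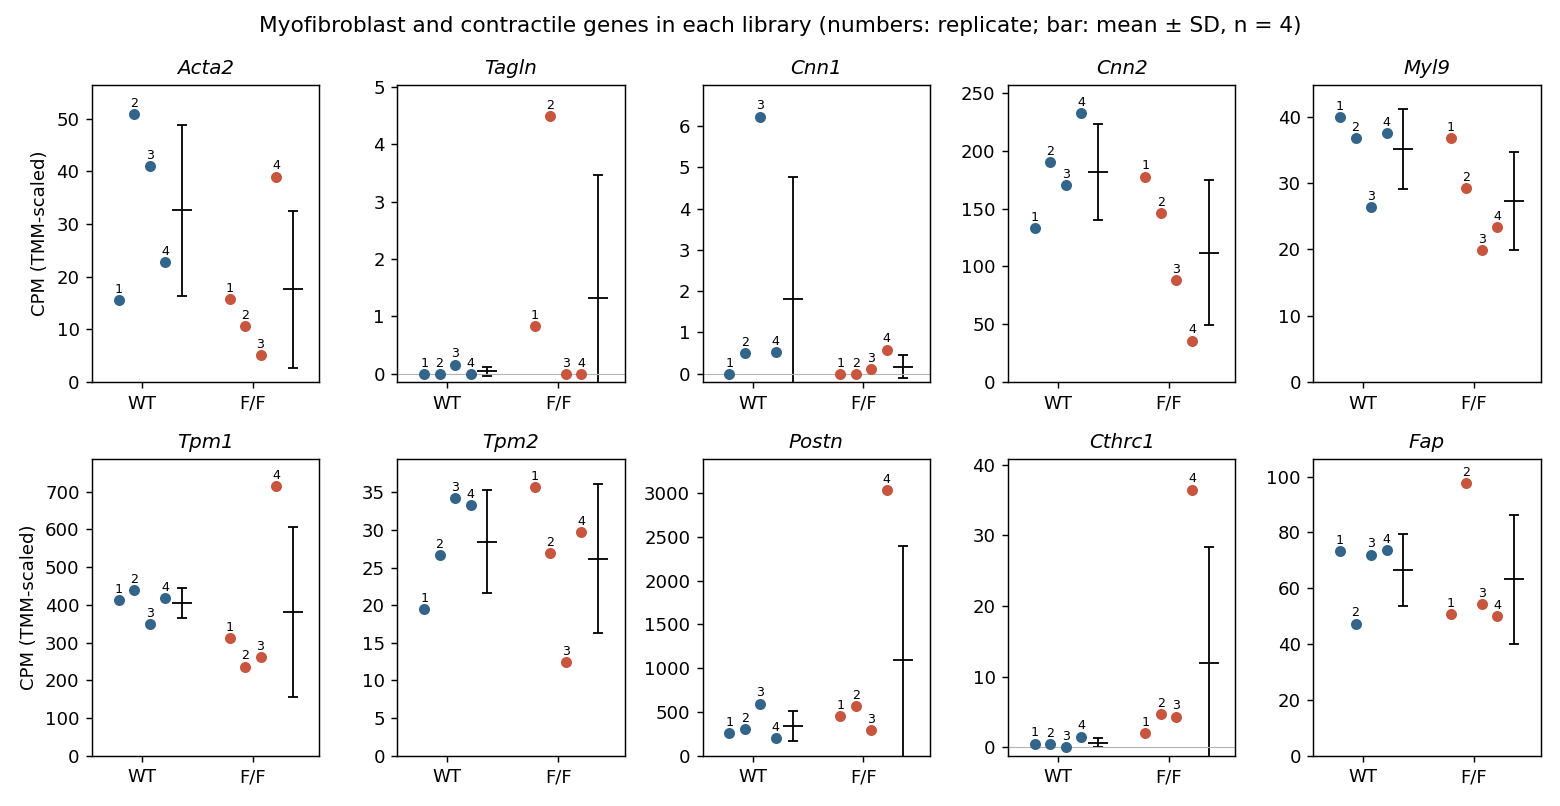
CPM of the 10 members in each library, with the replicate number at each point and the mean ± SD of 4 libraries as a bar, cut at the lower edge of the panel where it passes below it. F/F replicate 4 is the highest point for Tpm1 (715 CPM), Postn (3040 CPM) and Cthrc1 (36.5 CPM) and the lowest for Cnn2 (35.8 CPM).

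The promoters of the contractile members were read for letters that their known regulators bind, since SRF binds the CArG box and TEAD factors, partners of YAP and TAZ, bind GGAATG. Of the 10 members, 7 had an entry in the RefSeq promoter set (GRCm38.p6, 250 bases before each start). The CArG box was found on either strand in 482 of 32851 promoters (1.47%) and in the promoters of 2 members, Myl9 and Cnn2. GGAATG was found in 4153 promoters (12.6%) and in those of 2 members, Tpm1 and Acta2. CAGAC, which SMAD proteins of TGF-beta signaling bind, was found in 13861 promoters (42.2%) and in those of 2 members, Postn and Acta2. The 7 members have 8 promoter entries, 2 of them of Postn. The Postn match lies in the entry at chr3:54359017-54359316, and the entry next to its GENCODE start (chr3:54361109) holds none. A match describes these letters only, and its absence says only that they are not in this window. The stretches around the CArG boxes and GGAATG are shown because the regulators of both motifs are measured in these libraries, each written 5′ to 3′ along the gene with the motif in capitals. They are Myl9 at chr2:156775278-156775337 (plus strand), Cnn2 at chr10:79988519-79988578 (plus strand), Tpm1 at chr9:67049239-67049294 (minus strand) and Acta2 at chr19:34255489-34255544 (minus strand). The starts used here are those of RefSeq. In GENCODE, Tpm1 (chr9:67022590-67049406) and Acta2 (chr19:34241090-34255590) begin further upstream, so the stretches of these 2 genes lie within the GENCODE gene bounds.
Myl9: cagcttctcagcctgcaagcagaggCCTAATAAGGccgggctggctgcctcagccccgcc
Cnn2: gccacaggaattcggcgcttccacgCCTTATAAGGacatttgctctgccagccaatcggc
Tpm1: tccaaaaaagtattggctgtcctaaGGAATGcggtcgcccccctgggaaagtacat
Acta2: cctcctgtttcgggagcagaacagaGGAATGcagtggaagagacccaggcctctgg

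The CArG box of Myl9 lies 161 to 152 bases and that of Cnn2 56 to 47 bases before the RefSeq start. Myl9 and Cnn2 had log2 fold changes of -0.36 and -0.70, and Tpm1 and Acta2, with GGAATG, of -0.09 and -0.87, none past the threshold.

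Postn (chr3:54361109-54391037, plus strand, mm10) encodes periostin, a secreted matrix protein that marks activated cardiac fibroblasts. It stood at 254, 304, 595 and 204 CPM in WT replicates 1 to 4 and at 455, 568, 293 and 3040 CPM in F/F replicates 1 to 4. F/F replicates 1 to 3 lay within the WT range, and F/F replicate 4 was 5.35 times the next F/F library. The mean was 339 ± 176 CPM in WT and 1089 ± 1306 CPM in F/F (SD, n = 4 each), and 439 ± 138 CPM over F/F replicates 1 to 3. The log2 fold change was 1.68, from 0.41 to 2.95 (SE 0.60, edgeR adjusted p = 0.264), a 3.21-fold higher fitted level. Without F/F replicate 4 it was 0.37, from -0.31 to 1.05 (edgeR adjusted p = 0.757). Postn was called only with no filter on low counts (edgeR adjusted p = 0.00957) and not with DESeq2 (DESeq2 adjusted p = 0.350).

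Cthrc1 (chr15:39076932-39087121, plus strand, mm10) encodes a secreted collagen triple helix repeat protein that marks matrix-producing fibroblasts after injury. It had 6, 1, 0 and 15 counts in WT replicates 1 to 4 and 20, 45, 38 and 438 counts in F/F replicates 1 to 4. In CPM these were 0.561, 0.503, 0 and 1.55 in WT and 2.07, 4.69, 4.37 and 36.5 in F/F. Every F/F library was above every WT library, which holds for no other tested member. Over all genes tested, 529 (4.06%) had all F/F libraries above all WT libraries and 518 (3.97%) had them all below, and Cthrc1 passed the filter on low counts only through the F/F libraries. The mean was 0.654 ± 0.650 CPM in WT and 11.9 ± 16.4 CPM in F/F (SD, n = 4 each), and 3.71 ± 1.43 CPM over F/F replicates 1 to 3. The log2 fold change was 4.08, from 1.68 to 6.47 (SE 1.12), and did not pass the threshold (edgeR adjusted p = 0.146). With DESeq2 it passed (DESeq2 adjusted p = 0.00588). Without F/F replicate 4 the log2 fold change was 2.43, from -0.67 to 5.53 (edgeR adjusted p = 0.590). The WT values rest on 22 counts in all.

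Fap encodes fibroblast activation protein, a surface protease of activated fibroblasts. It stood at 73.3, 47.3, 72.1 and 73.5 CPM in WT replicates 1 to 4 and at 50.7, 97.5, 54.3 and 50.1 CPM in F/F replicates 1 to 4. The lowest library was WT replicate 2 and the highest F/F replicate 2. The means were 66.6 ± 12.9 and 63.2 ± 23.0 CPM (SD, n = 4 each), and the log2 fold change was -0.08, from -0.64 to 0.47 (SE 0.26, edgeR adjusted p = 0.946). Changes of over 1.55-fold lower or 1.39-fold higher are outside the interval. Of the matrix and surface members, Postn and Cthrc1 were thus highest in F/F replicate 4 and Fap was not.

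**Figure D4:**
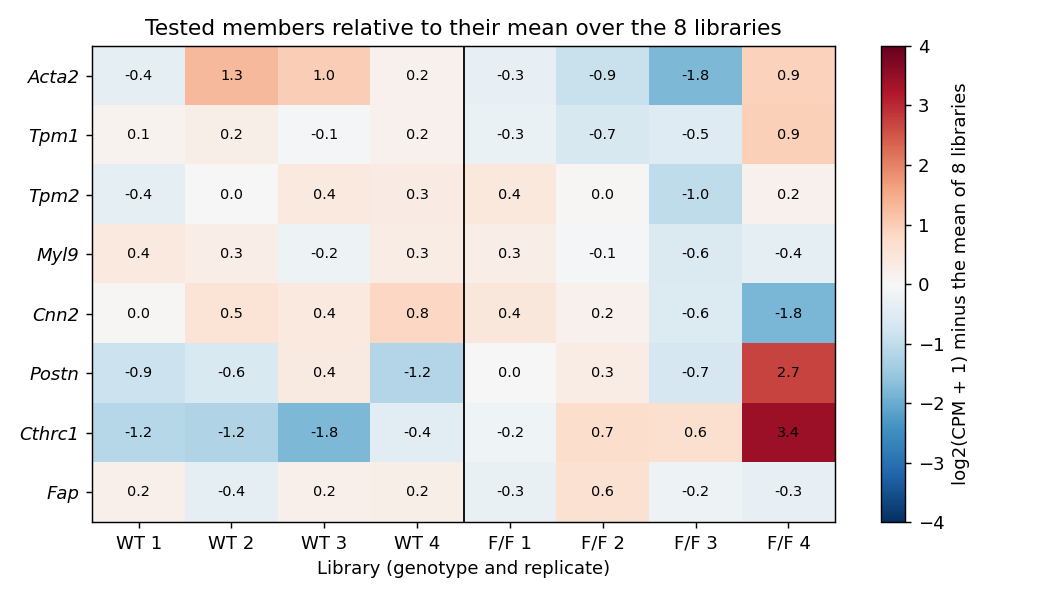
Each tested member in each library as log2(CPM + 1) minus its mean over the 8 libraries, red above and blue below. F/F replicate 3 is lowest for Acta2, Tpm2 and Myl9, and F/F replicate 4 is highest for Tpm1, Postn and Cthrc1 and lowest for Cnn2.

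Across libraries, the coefficient of variation was higher in F/F than in WT for 8 of the 8 tested members, beside 58.6% of all genes tested, a difference that was not tested. It was higher in F/F for 6 of the 8 without F/F replicate 4, beside 52.6% of all genes tested. The coefficient of variation was 59.0% in F/F and 9.56% in WT for Tpm1, 120% and 51.7% for Postn, and 56.1% and 22.8% for Cnn2. Without F/F replicate 4 the F/F value was 14.1% for Tpm1 and 33.1% for Cnn2, and it was below that of WT for Postn (31.6%) and for Cthrc1 (38.6%, against 99.4% in WT). F/F replicate 4 was the highest library for 3 of the 8 tested members, beside 17.3% of all genes tested. F/F replicate 3 was the lowest library for 3 of the 8, beside 15.0% of all genes tested.

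Levels between genes were compared as CPM per kilobase of annotated exon (RPKM). In WT the order of mean levels was Cnn2 (73.8 RPKM), Tpm1 (62.5), Postn (39.0), Myl9 (30.3), Acta2 (14.8), Fap (11.8), Tpm2 (9.77), Cnn1 (0.663), Cthrc1 (0.411) and Tagln (0.0201). Between Tpm2 and Cnn1 the ranges over the 4 libraries did not overlap, and between every other pair of neighbors they did. Cnn2 and Tpm1, which are also expressed outside smooth muscle, were thus at the top of the order. Cnn1 and Tagln were at the bottom together with the matrix member Cthrc1, and Myl9 and Acta2 lay between. The WT values of Cnn1, Cthrc1 and Tagln rest on 45, 22 and 1 counts. In F/F the order was Postn (125 RPKM), Tpm1 (58.8), Cnn2 (45.5), Myl9 (23.5), Fap (11.2), Tpm2 (9.004), Acta2 (8.01), Cthrc1 (7.48), Tagln (0.668) and Cnn1 (0.0638), and the ranges of all neighbors overlapped. Postn stood at 349 RPKM in F/F replicate 4, and without that library the F/F order was Cnn2 (55.8 RPKM), Postn (50.4), Tpm1 (41.6), Myl9 (24.7), Fap (11.9), Tpm2 (8.60), Acta2 (4.75), Cthrc1 (2.33), Tagln (0.891) and Cnn1 (0.0140). The ranges of Tpm1 and Myl9 then did not overlap, and those of the other neighbors did.

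The wider contractile apparatus was read from a list of 24 genes for cytoplasmic actins, myosin chains, actin cross-linkers and focal adhesion proteins, of which 23 were tested. None was called by edgeR, DESeq2 or limma-voom, and 3 had an unadjusted p under 0.05 with edgeR, a share near the 11.9% of all genes. The fitted change was downward in 16 and upward in 7, with a median log2 fold change of -0.30 beside 0.02 over all genes. F/F replicate 4 was the lowest library for 8 of the 23, beside 14.4% of all genes tested. The 3 genes with the lowest p all had lower means in F/F. Vcl, which encodes the focal adhesion protein vinculin, had 141 ± 18.2 CPM in WT and 94.8 ± 19.6 CPM in F/F (SD, n = 4 each), which is -0.57 as a log2 fold change (edgeR adjusted p = 0.271). Pdlim7, a cytoskeletal adaptor, had 122 ± 12.5 and 87.4 ± 3.80 CPM, and a fitted log2 change of -0.48 (edgeR adjusted p = 0.299). Its F/F libraries were all below all WT libraries, which held for 3.97% of all genes tested. Myh9, the heavy chain of nonmuscle myosin IIA, had 456 ± 93.0 and 299 ± 81.9 CPM, or -0.60 as a log2 fold change (edgeR adjusted p = 0.307).

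Regulators of the program were read from 22 genes, among them SRF and its coactivators, the TGF-beta ligands, receptors and SMAD proteins, and YAP, TAZ and TEAD1, of which 21 were tested. edgeR and limma-voom called 0, DESeq2 called 1, Tgfbr1 (2.15% of all genes by that tool), and 6 had an unadjusted p under 0.05 with edgeR (11.9% of all genes). Of the 21, 11 were fitted higher and 10 lower, with a median of 0.07. Among the ligands, Tgfb3 had 199 ± 16.2 CPM in WT and 136 ± 24.3 CPM in F/F (SD, n = 4 each), with all F/F libraries below all WT libraries (log2 fold change -0.55, edgeR adjusted p = 0.249). Among the receptors, Tgfbr1, the type I TGF-beta receptor, had 82.1 ± 12.5 and 146 ± 42.7 CPM, with all F/F libraries above all WT libraries (log2 fold change 0.83, edgeR adjusted p = 0.138). The SRF coactivator MRTF-B, listed as Mkl2, had 66.8 ± 10.05 and 42.7 ± 3.87 CPM, with the groups apart (log2 fold change -0.64, edgeR adjusted p = 0.224). None of these 3 genes, named as those with the lowest p in the list, passed the threshold with edgeR. Over all genes tested, 4.06% had all F/F libraries above all WT libraries and 3.97% had them all below.

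Other genes of activated fibroblasts were read from 18 genes, mainly collagens, matrix cross-linkers and matricellular proteins, of which 16 were tested. edgeR and limma-voom called 0, DESeq2 called 1, Timp1 (2.15% of all genes by that tool), and 4 had an unadjusted p under 0.05 with edgeR (11.9% of all genes). Of the 16, 10 were fitted higher and 6 lower, with a median of 0.13, and F/F replicate 4 was the highest library for 7 of them. Lox, the lysyl oxidase that cross-links collagen and elastin, ranged from 73.3 to 154 CPM in WT and from 115 to 373 CPM in F/F replicates 1 to 3 and stood at 826 CPM in F/F replicate 4 (log2 fold change 1.86, edgeR adjusted p = 0.125). Without that library the Lox change was 1.10 (edgeR adjusted p = 0.205), and Lox passed the threshold with no filter on low counts (edgeR adjusted p = 0.00034) and without F/F replicate 1 (edgeR adjusted p = 0.0433). Timp1, an inhibitor of matrix metalloproteinases, ranged from 18.5 to 38.2 CPM in WT and from 13.2 to 129 CPM in F/F (log2 fold change 1.63, edgeR adjusted p = 0.192). The Timp1 change was 1.20 without F/F replicate 4 (edgeR adjusted p = 0.328), and Timp1 passed with no filter (edgeR adjusted p = 0.00592) and without F/F replicate 3 (edgeR adjusted p = 0.0350). Fn1, fibronectin, had 706 ± 180 CPM in WT and 477 ± 29.7 CPM in F/F (SD, n = 4 each, log2 fold change -0.56, edgeR adjusted p = 0.307). As with Postn, the highest Lox and Timp1 levels were in F/F replicate 4.

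Of 14 paralogs of the members, 12 were tested and none was called by edgeR, DESeq2 or limma-voom, with 2 at an unadjusted p under 0.05 with edgeR (11.9% of all genes). Of the 12, 5 were fitted higher and 7 lower, with a median of -0.14. The largest fitted change of the 12 was that of Tagln2, the transgelin of nonmuscle cells. It had 445 ± 101 CPM in WT and 245 ± 86.8 CPM in F/F (SD, n = 4 each), with a fitted log2 change of -0.86 (SE 0.27, edgeR adjusted p = 0.208). Every F/F library was below every WT library for Tagln2, which held for 3.97% of all genes tested. Tpm4, a nonmuscle tropomyosin, had 659 ± 132 and 447 ± 156 CPM (log2 fold change -0.56, edgeR adjusted p = 0.408). The cytoplasmic actin Actb had 5616 ± 601 and 3939 ± 1345 CPM (log2 fold change -0.51, edgeR adjusted p = 0.473, and -0.30 without F/F replicate 4), and Actg1 had 643 ± 58.2 and 682 ± 262 CPM (log2 fold change 0.09, edgeR adjusted p = 0.947, and 0.32 without F/F replicate 4). The sarcomeric actin Actc1 stood at 142 CPM in F/F replicate 4, at 21.6 to 31.5 CPM in the other F/F libraries and at 8.31 to 112 CPM in WT. Its log2 fold change was -0.25 over all libraries (edgeR adjusted p = 0.933) and -1.36 without F/F replicate 4 (edgeR adjusted p = 0.340), and it was called, at -1.73, without both WT replicate 3 and F/F replicate 4 (edgeR adjusted p = 0.00933). The other 7 tested paralogs (Acta1, Cnn3, Myl12a, Myl12b, Tpm3, Tgfbi and Dpp4) had log2 fold changes from -0.53 (Dpp4) to 0.35 (Acta1, -1.30 without F/F replicate 4). Actg2 and Tagln3 had too few counts to pass the filter.

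The genes whose pattern over the 8 libraries was most like that of Acta2, by Pearson r of log2 CPM with the genotype means taken out, were Bgn (0.963), Kifc2 (0.958), H6pd (0.954), Gpatch4 (0.953) and Mid1ip1 (0.945). Bgn encodes biglycan, a matrix proteoglycan. With a prior count of 0.5 in place of 2, Gpatch4 fell to rank 39 (0.904), and the others stayed within the first 5. Without F/F replicate 4 these values were 0.901 to 0.941 over 7 libraries. For Postn they were Tmem140 (0.975), Dtx3 (0.966), Cilp (0.966), Rab31 (0.965) and Fam214b (0.965), and 0.865 to 0.934 without F/F replicate 4. Cilp encodes a matrix protein of cartilage and of cardiac fibroblasts, and stood at 582 CPM in F/F replicate 4, against at most 191 CPM in WT and 118 CPM in the other F/F libraries. These are the highest values among all genes tested, and the libraries differ in depth and cell makeup, so the values are given as a description only.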

How the data were processed

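Counts per gene of 8 libraries, 4 WT and 4 Pdgfra-Cre:LmnaF/F, were used as the authors deposited them. Per the methods of the study, rRNA-depleted strand-specific libraries from RNA with an integrity number above 8 were sequenced paired-end at 150 bp, aligned to mm10 with HISAT2, and counted per GENCODE gene with featureCounts (versions and strand setting not given in the sources used here). The deposited counts are whole numbers with unequal totals, used here as raw counts. The study named RUV normalization and DESeq2 for its own comparison.

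From the counts, TMM factors, CPM, and the quasi-likelihood test of genotype were computed with edgeR 4.0.16 in R 4.3.3, after filterByExpr, with Benjamini-Hochberg adjustment over 13036 genes. DESeq2 1.42.0, limma-voom (limma 3.58.1) with quality weights, other scalings and filters, 1 RUVr factor, a replicate block and leaving out each library were alternatives. CPM for the pattern comparison used a prior count of 2 (alternative 0.5). No 2 libraries of the same genotype agreed within sampling noise. The labels do not say whether each library came from 1 mouse, so p-values measure the spread between these libraries, which may be technical in part.

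The members and lists (contractile apparatus, myofibroblast regulators, activated fibroblasts, paralogs, and markers of fibroblasts, mural cells, cardiomyocytes, endothelial, immune, epicardial and Schwann cells) were chosen with earlier results of these data known. Named genes were the members, Lmna, the called genes and the 3 lowest p of each of the first 3 lists, the paralogs, and the 5 genes most like Acta2 and Postn. Exon lengths came from GENCODE vM21, of the same build. Promoters came from RefSeq.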

Additional observations from a re-analysis of the deposited data

Results flagged for a closer look

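In each genotype the highest or lowest of the 4 libraries was compared with the nearest other library by Dixon's gap ratio. Chance passes it in about 1 in 20 groups of normal values. Here 7 of the 20 groups of the 10 members passed, of which 5 belong to the 16 groups of the 8 tested members, beside 6.78% of the groups of all genes tested. In 3 of the 7, F/F replicate 4 was the high library, with Tpm1 at 715 CPM, Postn at 3040 CPM and Cthrc1 at 36.5 CPM. In 2 it was WT replicate 3, with Cnn1 at 6.23 CPM and Tagln at 0.160 CPM, which is 1 count against 0 in the other WT libraries and passes by construction. Fap passed in both genotypes, with WT replicate 2 low at 47.3 CPM and F/F replicate 2 high at 97.5 CPM. WT replicate 2 was the shallowest library, at 2080555 counts. The cause of these gaps was not tested.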

How the results depend on the processing

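Members read from 13036 tested genes depended on the tool and filter more than on the scaling. With edgeR 53 genes and 0 members were called, 53 with RLE and 50 with upper quartile scaling. DESeq2 called 309 genes and 1 member, no filter on low counts 274 genes and 2 members, limma-voom 126 genes, 1 RUVr factor 83 genes, and leaving out WT replicate 3 and F/F replicate 4 together (chosen after seeing the data) 130 genes. Leaving out 1 library gave 13 to 76 genes, with 13 without WT replicate 4, 17 without F/F replicate 3, 24 without WT replicate 1 or WT replicate 2, 26 without F/F replicate 2 and 76 without F/F replicate 4, and 0 members in each. Same-numbered WT and F/F libraries did not deviate together (r over genes from -0.03 to 0.04), so the numbers were not taken as pairs. With a replicate block 36 genes and 0 members were called. Cthrc1 could not be tested with at least 10 counts in every library.

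Fitted log2 fold changes near 0 turned sign. Leaving out 1 library, or WT replicate 3 and F/F replicate 4 together, Tpm1 ranged from -0.65 to 0.081, Tpm2 from -0.31 to 0.12, Fap from -0.37 to 0.045, Acta1 from -1.30 to 1.26, Actc1 from -1.73 to 0.12, Actg1 from -0.11 to 0.32, Cnn3 from -0.034 to 0.23, Myl12b from -0.97 to 0.46, Tpm3 from -0.22 to 0.051 and Tgfbi from -0.18 to 0.22. With the replicate block, Acta1 was at -0.50, Actg1 at -0.010 and Myl12b at 0.44. With 1 RUVr factor, Actc1 was at 0.013 and Myl12b at 1.05. With limma-voom, Tgfbi was at -0.19. The causes were not tested. Acta2, Cnn2, Myl9, Postn and Cthrc1 kept their direction under every alternative run, with Acta2 from -1.62 to -0.55. Cthrc1 ranged from 2.01 (without WT replicate 3 and F/F replicate 4) to 5.05 (without WT replicate 4) and was at 2.72 with limma-voom, and Postn ranged from 0.37 (without F/F replicate 4) to 2.10 (without WT replicate 3) and was at 1.07 with the replicate block. Tagln and Cnn1 had over 10 counts in 1 library each and at most 8 in the others, and the WT values of Cthrc1 rest on 22 counts.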

Other observations

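Beyond the genes named above, several list genes were far higher in F/F replicate 4 than in the other libraries. They were picked after their values were seen. Among matrix genes, Thbs4, which encodes thrombospondin 4, stood at 79.5 CPM in that library and at most at 7.51 CPM in WT and 3.22 CPM in the other F/F libraries. Ltbp2, a binding protein of elastic fibers, stood at 113 CPM against at most 35.7 CPM in WT and 23.2 CPM in the other F/F libraries. Among muscle genes, Des, the intermediate filament desmin, stood at 188 CPM against at most 54.8 CPM in WT and 23.6 CPM in the other F/F libraries. Myocd, the SRF coactivator of smooth and cardiac muscle, stood at 12.1 CPM against at most 2.52 CPM in WT and 2.48 CPM in the other F/F libraries. None of these 4 genes passed the edgeR threshold. Epicardial markers summed to 11.02 to 45.8 CPM in WT and to 6.67 to 15.7 CPM in F/F, and Schwann cell markers to 3.52 to 7.01 and to 1.25 to 7.71 CPM. All 6 epicardial markers were fitted lower in F/F (median log2 fold change -1.05). Of the 12 tested cardiomyocyte markers, 11 were fitted higher (median 1.21). edgeR called 0 of either list, and Myh7 was called with no filter on low counts and without F/F replicate 1.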
